A study of Mus musculus with 2 samples.

Results

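The 10 miRNA genes described here (Mir770, Mir493, Mir337, Mir540, Mir665, Mir431, Mir433, Mir127, Mir434 and Mir136) lie in or downstream of Meg3 and opposite to Rtl1, at the proximal end of the miRNA-rich Dlk1-Dio3 region of mouse chromosome 12. They were chosen by symbol and position, and 9 of the 10 had a row among the 1973 miRNA genes of the count tables. Mir136 had none. The single heart of each of 2 newborn pups of strain B6NCrl, on postnatal day 0, was sequenced for small RNA, with inserts under 30 nt from total RNA. Both pups, of a sex that was not collected, came from the litter of pregnant female 1 and were untreated as far as the labels say. Pup 2 gave replicate 1 and pup 3 gave replicate 2. The only group was thus newborn heart (n = 2), and no condition was compared. A whole heart mixes muscle, vessel, connective and blood cells, and fewer cells of a type and less RNA per cell cannot be told apart.

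MicroRNAs are short RNAs cut from hairpin precursors, and they repress messenger RNAs that pair with their seed, bases 2 to 8. The Dlk1-Dio3 region is imprinted: its non-coding RNAs (Meg3, Rian, Mirg and the miRNAs) are made from the maternal chromosome, and its protein genes (Dlk1, Rtl1 and Dio3) from the paternal one. Rtl1 is a gene derived from a retrotransposon and needed in the placenta. The miRNAs on its opposite strand pair with its RNA along their whole length, and cleavage of Rtl1 RNA by them is known. Transcription of the region is high in the embryo and in the brain.

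All 10 genes lay on the plus strand of GRCm38. Mir770 (chromosome 12, 109563692 to 109563785) was inside Meg3, 22.7 kb from its start, in an intron of 3 of the 4 Meg3 transcripts that span it and in an exon of the other. Mir493 (109580233 to 109580315), Mir337 (109585789 to 109585885), Mir540 (109586080 to 109586146) and Mir665 (109586314 to 109586407) stood between Meg3 and Rtl1, inside no other annotated gene than miRNA genes. These 5 are called the Meg3 side below. Mir431 (109590447 to 109590537), Mir433 (109591715 to 109591838), Mir127 (109592846 to 109592915), Mir434 (109594506 to 109594599) and Mir136 (109595327 to 109595388) were each inside the coding sequence of Rtl1 (109589193 to 109600330, minus strand), on the strand opposite to it. These 5 are called the Rtl1 side.

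The mature sequences below, from RefSeq on GRCm38.p6, are those of the 4 Rtl1-side genes with a count and of Mir337, the most abundant gene of the Meg3 side. They are written 5′ to 3′ with the seed in capitals. The counts are per gene, so how the reads divide between the arms was not measured.
miR-127-5p: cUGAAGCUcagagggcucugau
miR-127-3p: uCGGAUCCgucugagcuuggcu
miR-431-5p: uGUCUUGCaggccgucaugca
miR-431-3p: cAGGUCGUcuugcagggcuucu
miR-434-5p: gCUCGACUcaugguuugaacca
miR-434-3p: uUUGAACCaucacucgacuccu
miR-433-5p: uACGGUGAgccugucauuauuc
miR-433-3p: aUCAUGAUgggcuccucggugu
miR-337-5p: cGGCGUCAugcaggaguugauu
miR-337-3p: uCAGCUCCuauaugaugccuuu

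All 10 genes matched the RefSeq table, with 20 mature arms of 19 to 26 nt, and the 20 arms had 20 different seeds. No seed was thus shared within the set. Outside it, among 1738 mature mouse sequences, 1 arm had a partner of the same seed: miR-540-3p, with miR-6915-5p, whose gene had no row in the tables. The pair is shown because it is the only seed that the set has in common with another mouse miRNA of that table.
miR-540-3p: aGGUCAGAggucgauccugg
miR-6915-5p: aGGUCAGAgcagauggagguucgu
A U at the first base, which Argonaute proteins favour, was present in 7 of the 20 arms (35.0%) and in 41.3% of all mature mouse sequences of the table. A repeat joins the arms of 2 of the hairpins. The stretch GUCUUGCAGG of 10 nt stands in both arms of Mir431, and 4 of 677 hairpins with both arms listed had a shared stretch at least as long. The stretch UUUGAACCA of 9 nt stands in both arms of Mir434, and 9 of 677 hairpins reached that length.

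The 10 mature arms of the Rtl1 side each found a site of full length with 0 mismatches in the 6358-nt Rtl1 transcript, and each site was inside the coding sequence. The sites of miR-127-3p, miR-431-5p and miR-434-3p are shown as the Rtl1 transcript reads, as DNA letters 5′ to 3′, with the 7 bases that face the seed in capitals.
Rtl1 site of miR-127-3p, chr12:109592888-109592909, minus strand: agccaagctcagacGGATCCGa
Rtl1 site of miR-431-5p, chr12:109590459-109590479, minus strand: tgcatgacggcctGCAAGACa
Rtl1 site of miR-434-3p, chr12:109594565-109594586, minus strand: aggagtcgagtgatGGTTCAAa
They begin at base 2642, 5072 and 965 of the transcript. No arm of the Meg3 side had such a site. Full pairing follows from the position on the opposite strand. Rtl1 RNA itself was not measured, since the tables hold miRNA genes only.

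Replicate 1 had 2323450 sense counts on miRNA genes and replicate 2 had 3487183. Levels are given as CPM, the sense count per 1000000 sense counts on miRNA genes, without division by length, since inserts under 30 nt hold a mature miRNA whole. Reads yielded per molecule were not measured, so comparisons between genes are comparisons of counts. Heart muscle markers (Mir208a, Mir208b, Mir499, Mir1a-1 and Mir133a-1) had summed levels of 90126 and 88947 CPM in the replicates, led by Mir208b, a miRNA of the heart muscle gene Myh7. The sum came almost wholly from Mir208b, Mir208a and Mir499. Mir1a-1 was low at 7.32 and 5.45 CPM, and Mir133a-1 at 8.61 and 7.17 CPM, though no heart muscle marker was at 0. The neuronal markers Mir124a-1, Mir124a-2, Mir124a-3, Mir9-2 and Mir9-3 had 0 counts in both hearts. Reads aligned to several places, which these multi-copy genes can lose, were assigned to no gene.

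Together the 9 genes held 0.535% of sense counts in replicate 1 (exact Clopper-Pearson 95% interval 0.526% to 0.545%) and 0.605% in replicate 2 (0.597% to 0.613%), a mean of 0.57% ± 0.049 (SD, n = 2). Mir127 gave 50.8% of these counts in replicate 1 and 50.6% in replicate 2. Mir127, Mir431, Mir434 and Mir337 together gave 91.8% and 92.0%. All 9 genes reached 2 CPM in both hearts, as did 327 of the 1973 genes. None of the 9 shared a stretch of 20 nt with a miRNA gene at another place. These intervals hold for counting error alone, because without molecular identifiers a read is not an independent molecule.

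**Figure D1:**
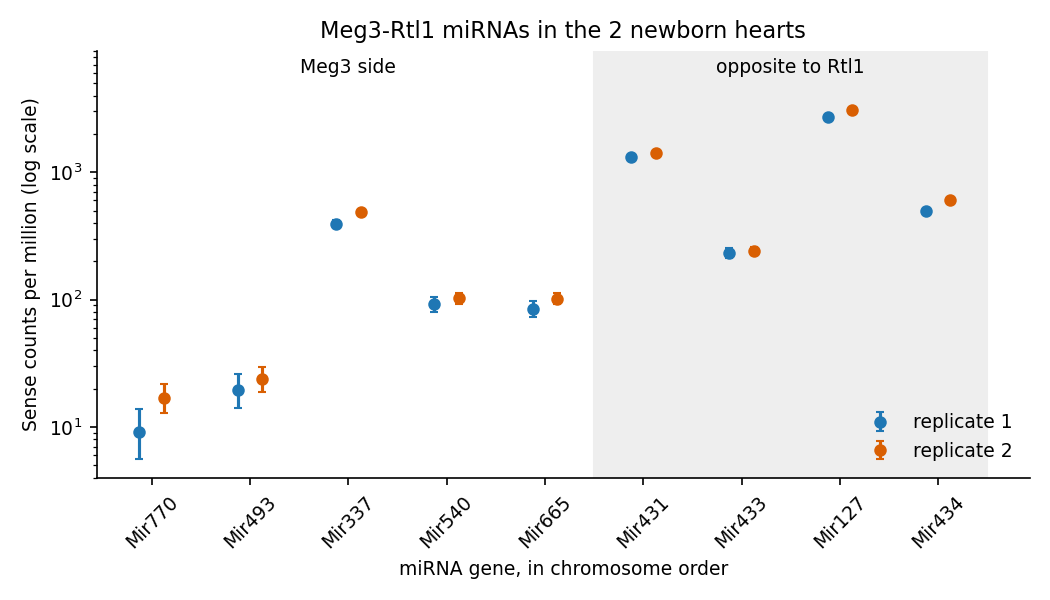
Sense CPM (log axis) of the 9 miRNA genes with a row, in chromosome order, in replicate 1 and replicate 2; bars are exact Clopper-Pearson 95% intervals of counting error. Mir127 stands at the top at 2718 and 3060 CPM and Mir770 at the bottom at 9.04 and 16.9 CPM, and in each gene replicate 2 is the higher point.

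On the Rtl1 side, Mir127, which is known to guide cleavage of Rtl1 RNA, had 6314 counts in replicate 1 and 10671 in replicate 2. That was 2718 and 3060 CPM, or 2889 ± 242 CPM (SD, n = 2), rank 36 of all 1973 genes, of which 1358 had 0 sense counts in both libraries. Mir431, whose miRNA has been studied in muscle stem cells, had 3042 and 4918 counts, 1309 and 1410 CPM, or 1360 ± 71.5 CPM, rank 69. Mir127 was 2.12-fold higher than Mir431 (log2 ratio 1.08 ± 0.0453, SD over the pups), and the values of the 2 genes did not overlap.

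Mir434 followed with 1155 counts in replicate 1 and 2114 in replicate 2, 497 and 606 CPM, or 552 ± 77.2 CPM (SD, n = 2), rank 91. Mir433, which lies between Mir431 and Mir127, was lower than both, with 541 and 842 counts, 233 and 241 CPM, or 237 ± 6.09 CPM, rank 121. The order Mir127, Mir431, Mir434 and Mir433 was the same in both hearts. The 4 genes together took 0.504% ± 0.0397 of sense counts.

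Mir136 is the fifth gene of the Rtl1 side and, like Mir127, a known guide of Rtl1 cleavage. Its own Ensembl gene had no row. Its locus is overlapped on the minus strand by Mir3071 in GENCODE M21, and the row with the Ensembl gene number of Mir3071, in an earlier version, held 345 sense counts in replicate 1 and 700 in replicate 2, with 0 on the opposite strand in both. That was 148 and 201 CPM, or 175 ± 36.9 CPM (SD, n = 2). The strand that the earlier version of this gene had was not given in the sources used here, so whether these reads came from miR-136 or from miR-3071 was not settled, and the row was counted with neither. The 4 sequences are shown because the genes are read from opposite strands of the same bases.
miR-136-5p: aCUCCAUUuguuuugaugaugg
miR-136-3p: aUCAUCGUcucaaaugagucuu
miR-3071-5p: aCUCAUUUgagacgaugaugga
miR-3071-3p: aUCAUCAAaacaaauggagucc

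On the Meg3 side, Mir337 was the most abundant, with 913 counts in replicate 1 and 1689 in replicate 2. That was 393 and 484 CPM, or 439 ± 64.6 CPM (SD, n = 2), rank 97. Its level was next below that of Mir434, which was 1.26-fold higher (log2 ratio 0.33 ± 0.0108). The values of Mir434 in both hearts lay above those of Mir337, the nearest being 497 CPM of Mir434 and 484 CPM of Mir337. Mir3544 overlaps Mir337 on the minus strand, so the reads of this row are given to Mir337 with the limit stated below.

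Mir540 had 214 counts in replicate 1 and 356 in replicate 2, or 97.1 ± 7.06 CPM (SD, n = 2). Its neighbour Mir665 had 195 and 355 counts, or 92.9 ± 12.6 CPM. Their values overlapped between the hearts and their means differed by 4.23 CPM, less than either SD, so these 2 neighbours in the order of levels were not told apart. The other 7 steps in the order were each larger than the SD of both genes, with no overlap of values.

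The 2 genes nearest to the start of Meg3 were the lowest. Mir493 had 45 counts in replicate 1 and 83 in replicate 2, or 21.6 ± 3.14 CPM (SD, n = 2). Mir770, the gene inside Meg3, had 21 and 59 counts, 9.04 and 16.9 CPM, or 13.0 ± 5.57 CPM. With counts this low, the exact Clopper-Pearson 95% interval of Mir770 ran from 5.59 to 13.8 CPM in replicate 1 and from 12.9 to 21.8 CPM in replicate 2. That of Mir493 ran from 14.1 to 25.9 CPM in replicate 1 and from 19.0 to 29.5 CPM in replicate 2. The intervals of the 2 genes thus overlapped in replicate 2 and not in replicate 1. Mir127 was 215-fold higher than Mir770 on the log2(CPM + 1) scale, and 128-fold higher than Mir493. The log2 ratio of Mir770 over Mir127 was -8.08 in replicate 1 and -7.42 in replicate 2 (mean -7.75 ± 0.47, SD over the pups). For Mir493 over Mir127 the mean was -7.00 ± 0.0798.

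The Rtl1 side exceeded the Meg3 side 7.61-fold in summed counts (log2 ratio 2.99 in replicate 1 and 2.87 in replicate 2, mean 2.93 ± 0.089). It held 88.8% and 87.9% of the counts of the 9 genes. The ratio rested much on Mir127: without it the log2 ratio was 1.70, a setting chosen after the data were seen. No test was made, since an exact sign flip over 2 pups cannot give p below 0.5.

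Levels moved up and down along the segment, in genes that stand close together. Mir337 and Mir540 lie 194 nt apart, and Mir337 was 4.46-fold higher (log2 ratio of Mir540 over Mir337 -2.16 ± 0.109, SD over the pups). Mir540 and Mir665, 167 nt apart, had nearly the same level. Mir431 was 5.71-fold higher than Mir433, 1177 nt further on, and Mir127, after another 1007 nt, was 12.1-fold higher than Mir433. These ratios had SDs between the pups of at most 0.119 on the log2 scale for the 6 steps from Mir337 to Mir434, so the proportions among these neighbours were close in both hearts. How the precursors are cut or kept was not measured.

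**Figure D2:**
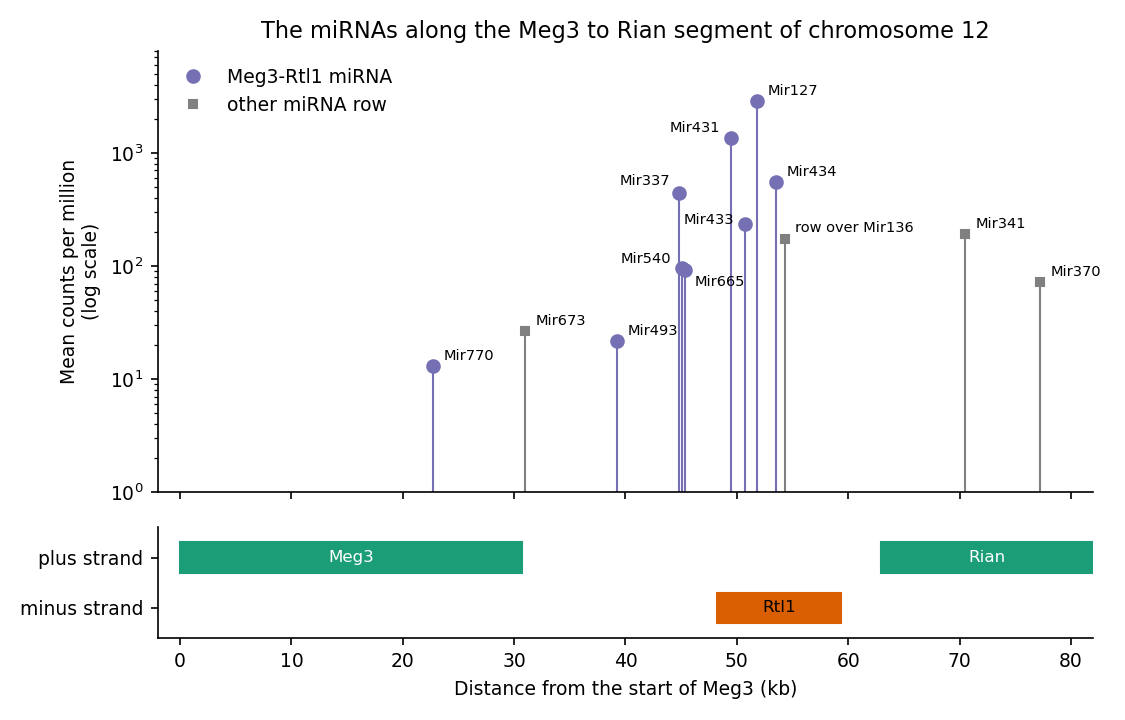
Mean CPM over the 2 hearts (upper panel, log axis, stems start at 1; circles are the 9 genes, squares other miRNA rows) against distance from the start of Meg3 in kb, with the genes Meg3, Rtl1 and the start of Rian by strand in the lower panel. The low Mir770 and Mir493 stand nearest to the start of Meg3, at 13.0 and 21.6 CPM, and Mir127 at 2889 CPM stands opposite to Rtl1.

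The opposite strand of the 9 rows held 0 counts in both libraries. A count of 0 allowed a share of up to 0.0475% of the Mir127 row in replicate 1 and 0.0281% in replicate 2, and of up to 14.3% and 5.08% of the Mir770 row, for counting error only. The row of Mir337, which is overlapped on the minus strand by Mir3544 (no row), allowed up to 0.329% and 0.178%. These bounds are for the strand opposite to the row, whichever strand the row had. The rows of Mir337, Mir540 and Mir127 carry an earlier version of the gene identifier than GENCODE M21, and they were matched by the number without the version. As for the row over Mir136, the strand that the earlier version of Mir337 had was not given in the sources used here. The reads of the Mir337 row were counted for Mir337, and whether any came from Mir3544 was not tested.

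The 11 other miRNA rows from the start of Meg3 to the distal cluster, the row over Mir136 among them, had summed levels of 407 and 526 CPM in the replicates, against 5354 and 6047 CPM for the 9 genes. Of these 11 rows, 5 reached 2 CPM in both hearts and 5 had 0 counts in both. Mir341, in Rian, was the highest at 191 ± 37.0 CPM (SD, n = 2), with 382 counts in replicate 1 and 756 in replicate 2, above Mir540, Mir665, Mir493 and Mir770. Mir370 had 151 and 274 counts, or 71.8 ± 9.61 CPM, and Mir673, just past the end of Meg3, had 61 and 93 counts, or 26.5 ± 0.293 CPM. The 38 rows of the distal cluster, which runs through Mirg, held 1.34% ± 0.148 of sense counts, led by Mir411 at 3563 CPM. The 9 proximal genes held 29.5% of the sense counts on the rows from Meg3 to the distal cluster in replicate 1 and 28.7% in replicate 2. These sense counts leave out most reads of 4 distal rows (Mir299b, Gm25750, Gm25252 and Gm24321, named after their values were seen), which had 1 and 2 sense counts in all but 6089 and 10629 counts on the opposite strand. With both strands counted on all rows, a setting chosen after the data were seen, the 9 genes held 25.8% and 25.1%.

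Outside the region, the 3 genes with levels most like Mir127 over the 2 libraries were Mir542 on chromosome X (2983 ± 101 CPM, SD, n = 2), Mir106b on chromosome 5 (2781 ± 86.0 CPM) and Mir532 on chromosome X (2853 ± 77 CPM). Their Euclidean distances to Mir127 in log2(CPM + 1) were 0.10, 0.11 and 0.16. Over 2 libraries this measure says only that the levels were alike.

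Replicate 2 had the higher CPM in all 9 genes. On library sizes scaled by edgeR's TMM factors, the log2 ratio of replicate 2 over replicate 1 ran from 0.04 for Mir433 to 0.82 for Mir770, with a median of 0.26 over the 9 genes and 0.03 over the 348 genes tested. Of the 348 genes, 55.5% had a ratio above 0. The direction was not particular to the 9 genes. The distal rows had a median of 0.20, with 22 of 28 tested rows above 0 and 6 below. The other proximal rows had a median of 0.25, with all 5 tested rows above 0. The 9 genes are neighbours on 1 chromosome and were picked with earlier results of these data known, so their common direction is a description.

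Each gene was then tested with an exact binomial test, two-sided, which compares these 2 libraries at counting error and not conditions. It called 4 of the 9 genes higher in replicate 2 and 0 lower. Over all genes tested, 17.8% were called higher and 10.1% lower, or 27.9% in either direction. The test calls abundant genes more readily: of the 193 genes whose mean was 50 CPM or more, 25.4% were called higher, and the 4 called here were among 7 such genes of the set. Mir127 was higher by a log2 ratio of 0.15, or 1.11-fold (adjusted p = 1.1e-10, exact binomial test with Benjamini-Hochberg adjustment over 348 genes). Mir434 was 1.21-fold higher (adjusted p = 1.81e-06, same exact test), Mir337 1.22-fold (adjusted p = 8.39e-06, same exact test) and Mir431 1.06-fold (adjusted p = 0.0259, same exact test).

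The other 5 genes did not pass the test. Mir770 had the widest ratio, 1.77-fold on 21 and 59 counts (adjusted p = 0.0565, exact binomial test), and was the only one of the 9 past 1.5-fold, against 10.9% of all genes tested. Mir493 stood at 1.20-fold on 45 and 83 counts, Mir665 at 1.20-fold on 195 and 355, Mir540 at 1.09-fold on 214 and 356, and Mir433 at 1.03-fold on 541 and 842. Their adjusted p ran from 0.142 for Mir665 to 0.833 for Mir433 by the same exact test.

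The 4 calls held at counting error only. With the spread between the pups estimated over 298 genes (edgeR common dispersion, a coefficient of variation of 18.6%), edgeR's exact test called 0 of the 9 genes, with adjusted p = 1 for Mir127, Mir431, Mir434 and Mir337. At an unadjusted p under 0.05 it also found 0 of the 9, and it called 2.3% of the 348 genes. This spread was estimated from the same 2 pups. Both pups share a litter, and each has 1 library, so animal and library preparation cannot be told apart.

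**Figure D3:**
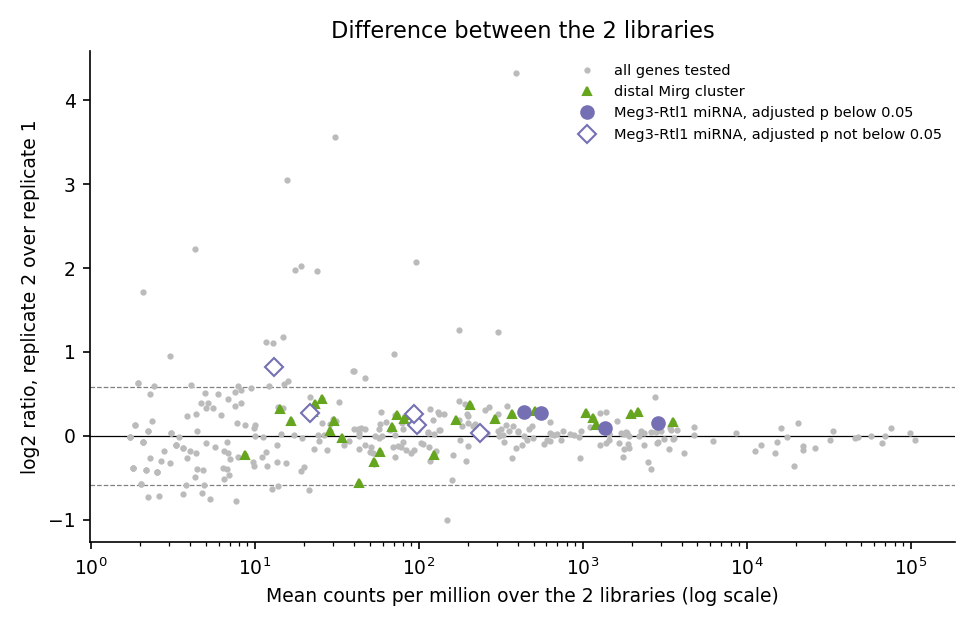
The log2 ratio of replicate 2 over replicate 1 for the 348 genes tested against mean CPM (log axis); filled circles are Meg3-Rtl1 miRNAs with adjusted p below 0.05 by the exact binomial test, open diamonds the other ones, triangles the distal cluster, and dashed lines 1.5-fold. All 9 lie above 0, from 0.04 to 0.82, and of the 9 only Mir770 lies past the upper dashed line.

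The hearts also differed in miRNAs of other cell types. The 7 epithelial markers had summed levels of 208 and 631 CPM in the replicates, and the 3 markers of multiciliated cells to 221 and 1184 CPM. None of these 10 markers was at 0. The mesenchymal markers Mir214, Mir199a-1 and Mir199b summed to 1894 and 1989 CPM, the heart muscle markers to 90126 and 88947 CPM, and the red cell markers Mir451a and Mir144 to 627 and 542 CPM. The 9 genes of the Meg3-Rtl1 segment summed to 5354 and 6047 CPM. What share of their ratio goes with cell makeup was not tested. An alternative chosen after the data were seen left the epithelial and multiciliated rows out of unnormalized library totals. All 9 ratios were then above 0 with a median of 0.278, and 5 genes were called by the exact binomial test, Mir770 being the fifth. Unnormalized totals with these rows kept gave the same 5 calls and a median of 0.276. These rows are too small a part of the totals to shift the ratios much, so this setting could not test cell makeup.

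**Figure D4:**
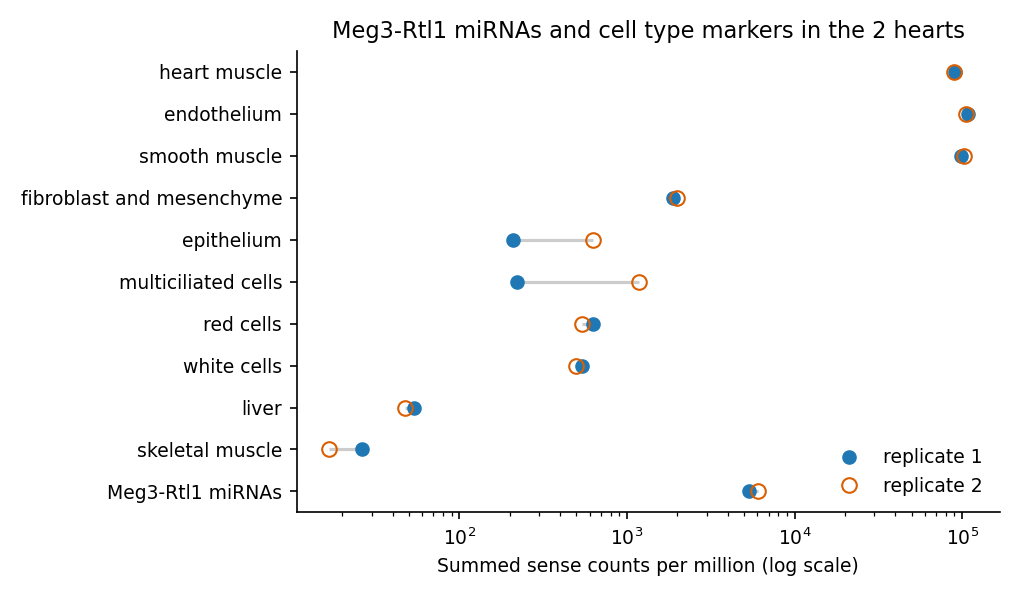
Summed sense CPM (log axis) of the Meg3-Rtl1 miRNAs and of marker lists in replicate 1 (filled) and replicate 2 (open). The epithelial sums are 208 and 631 CPM, the multiciliated sums 221 and 1184 CPM, and the Meg3-Rtl1 sums 5354 and 6047 CPM; the neuronal list, at 0 in both, has no point.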

How the data were processed

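Small RNA of 2 newborn mouse hearts was measured, with 1 library per heart. Each deposited table listed raw counts, the whole reads on each of 1973 miRNA genes, with no normalization. A column for the sense strand was used here, and together with the opposite-strand column it added up to the column of both strands in every row. Assembly mm10 and annotation GENCODE M4 are named per the labels and the description deposited with each table. Which aligner and counter made the tables is not given in the sources used here. The 4 summary rows entered no library size used for CPM and no test. They were part of all reads, the total behind the percentages that follow and the all-reads alternative. Reads aligned to several places made up 36.6% of all reads in replicate 1 and 37.1% in replicate 2, unmapped reads 11.5% and 10.5%, reads outside features 5.93% and 5.62%, and ambiguous reads 0.

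Identifiers were matched without version to GENCODE M21 (GRCm38, the same assembly), 1894 of 1973. Sequences came from RefSeq tables and GENCODE transcripts. The libraries came from 2 pups labelled as separate biological replicates and were counted as 2 samples. They differed beyond counting error (chi-square of 29.5 per degree of freedom over 348 genes). Genes with at least 10 counts over both libraries were tested by an exact two-sided binomial test on TMM-scaled library sizes (edgeR 4.0.16), with Benjamini-Hochberg adjustment over all of them at 0.05. Log2 ratios used a pseudocount of 1 CPM, with detection set at 2 CPM. The genes and lists were chosen with earlier results of these data known. All 10 genes were to be named, with overlapping or neighbouring miRNA rows of at least 10 counts in both libraries, the distal cluster's most abundant row and the 3 genes nearest to Mir127 in level. Alternatives covered strand, scaling (total, DESeq2 1.42.0 size factors), pseudocount, detection limit, count filter, thinning, dispersion, denominator and single replicates.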

Additional observations from a re-analysis of the deposited data

Results flagged for a closer look

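The row that overlaps Mir136 was kept apart from the levels and the main counts of the 9 genes and entered only among the other rows of the region, all genes tested and the settings that add it. It held a signal far above the 3 counts that a count of 0 allows: 345 sense counts in replicate 1 and 700 in replicate 2, a mean of 175 CPM. It would rank between Mir433 and Mir540 in level. Replicate 2 was 1.33-fold higher (adjusted p = 5.15e-05, exact two-sided binomial test between the 2 libraries at counting error). All of its reads lay on the sense strand of the row. Which of the 2 overlapping miRNAs they belong to was not tested.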

How the results depend on the processing

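With all reads as the denominator the 9 genes held 0.265% rather than 0.57%, since that total is larger. The number of genes called went from 4 to 0 with edgeR's common dispersion, where all genes called went from 97 to 8. The log2 ratio of the Rtl1 side over the Meg3 side went from 2.93 to 1.70 without Mir127. Mir770 passed the exact binomial test with total counts (adjusted p = 0.0427), with a filter of 50 counts (0.0441) and with epithelial and multiciliated rows left out of the total (0.0427, chosen after seeing the data, like the settings on Mir127 and the Mir136 row). On the other exact binomial settings it ran from 0.0542 to 0.0988, and edgeR's dispersion gave 1. With counts of both strands, whose totals are larger, Mir431 moved to 1269 CPM and Mir433 to 221 CPM. No ratio reversed its sign. With both strands the share of the counts of the region went from 29.1% to 25.4% (chosen after seeing the data). Of 187 recomputed values, 174 kept their direction and side of the threshold or stayed within the spread between pups. This tally is not a measure of robustness. A mean over 2 pups always stays within their SD when 1 replicate is left out, so such values could not move. A number of genes called that went from 4 to 5 was also tallied as kept. With the row over Mir136 added, 5 genes were called. A test without 1 replicate could not be made, since 1 library is left. No paired analysis was possible because the series has 1 group. Low counts limit Mir770 and Mir493.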
